A study of Mus musculus with 10 samples.

Results

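The genes described here are the heme oxygenase and NRF2 antioxidant genes Hmox1, Nqo1, Gclc, Gclm, Txnrd1, Srxn1, Slc7a11, Nfe2l2 and Keap1. They were taken by symbol, with every probe set (a group of short probes for 1 transcript) annotated to them, whatever its value. This gave 9 genes of the 18193 on the arrays and 19 probe sets of 45037, and all 9 genes were among the 10915 genes bright enough to be tested. Hmox1 and Nqo1 had 1 probe set each, Srxn1 had 4, Txnrd1 had 3 and each of the others had 2.

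NRF2, the protein of Nfe2l2, is a transcription factor that in resting cells is bound by KEAP1 and sent for degradation. Oxidants and reactive chemicals modify KEAP1, NRF2 then accumulates, pairs with a small MAF protein and binds antioxidant response elements in the promoters of genes for glutathione synthesis, thioredoxin recycling, quinone reduction and heme breakdown. Hmox1 encodes the inducible heme oxygenase, long known as a heat shock protein in rodents, and its transcription is also held back by BACH1, a repressor that uses the same MAF partners.

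The study measured thermotolerance in mouse embryonic fibroblast (MEF) lines on Affymetrix arrays, 10 in all. The line labelled hsp70 (-/-), here KO-labelled, had 3 preshocked and 3 unheated arrays, and the line labelled (+/+) and described as rescue cells, here rescue-labelled, had 2 and 2. Preshocked cells stood at 43 °C for 30 minutes after 20 hours in culture and were harvested 3 hours later. Unheated cells were harvested at 23 hours, and each sample pooled lysates from 144 wells of 96-well plates. All groups shared the same medium and well format. The labels do not say whether either line is a clone, how the rescue line was made, or whether the samples within a group came from separate cultures. The p-values below therefore measure only the spread between these samples, which may be technical. Array numbers in the labels put each preshocked array next to an unheated array of its line (5 and 6, 11 and 12, 13 and 14 in the KO-labelled line, 31 and 32, 43 and 44 in the rescue-labelled line), and these pairs are used below.

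The 3 probe sets of Hspa1b, a heat-inducible Hsp70 gene, were higher after preshock by 6.81 to 8.48 on the log2 scale in the KO-labelled arrays and by 5.60 to 6.95 in the rescue-labelled arrays. The largest adjusted p in limma over all probe sets was 0.00288 in the KO-labelled and 0.0367 in the rescue-labelled line (0.108 and 0.263 with the pair as a block, a fit that called 0 of all probe sets after preshock). A rise in the line labelled as lacking hsp70 goes against that label. Whether the label, the form of the deletion or the probe sets account for it was not tested, so each direction between lines below is a direction between labels. Fibroblast markers were bright (Vim, encoding vimentin, 21118 to 50033 in intensity; Col1a2 10930 to 16400; Fn1 10211 to 12855), while Thy1 lay between 61.0 and 122 and Lum between 13.5 and 64.1. Of 7 macrophage and leukocyte markers, 3 were bright enough to be tested. Cd14 lay between 342 and 768, Csf1r between 92.3 and 419, Cd68 between 64.1 and 164, Ptprc between 10.5 and 69.6, Adgre1 between 13.8 and 180 and Lyz2 between 1.09 and 179. Cd163, which marks macrophages rich in heme oxygenase, lay between 0.737 and 26.7. Pair 5 and 6 stood apart on the first principal component, which held 35.3% of the variance, and had median intensities of 100.4 and 107.0 against 50.7 to 73.7 in the other arrays.

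Promoters are shown first because 4 of the 7 genes searched carry core letters of an antioxidant response element close to a start site. These 4 are Srxn1, Gclm, Nfe2l2 and Txnrd1, and none of them passed the test of the common effect of heat without the pair as a block (with it Srxn1 and Nfe2l2 did). The promoter windows available here, at RefSeq (GRCm38.p6) start sites, covered 7 of the 9 genes. They did not include Hmox1 or Gclc, so these genes were not searched. Each window ran from 250 bases before to 50 bases from a start. Both strands were searched for TGACNNNGC (antioxidant response element core), TGAGTCA (AP-1 site) and GAANNTTC or TTCNNGAA (heat shock element core). These motifs were chosen after the sequences had been seen. The sequences run 5′ to 3′ on the strand of the gene, and capitals mark the matches. They are Srxn1 (chr2:152105274-152105573, plus strand), Gclm (chr3:122245307-122245606, plus strand), Nfe2l2 (chr2:75704614-75704913, minus strand) and the middle of 3 start sites of Txnrd1 (chr10:82858956-82859255, plus strand).
Srxn1: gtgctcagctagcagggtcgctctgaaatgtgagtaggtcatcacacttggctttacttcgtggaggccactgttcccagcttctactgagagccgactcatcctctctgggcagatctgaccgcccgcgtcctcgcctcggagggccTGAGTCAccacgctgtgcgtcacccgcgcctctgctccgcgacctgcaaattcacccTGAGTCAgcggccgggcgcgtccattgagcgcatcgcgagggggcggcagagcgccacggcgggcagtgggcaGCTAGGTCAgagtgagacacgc
Gclm: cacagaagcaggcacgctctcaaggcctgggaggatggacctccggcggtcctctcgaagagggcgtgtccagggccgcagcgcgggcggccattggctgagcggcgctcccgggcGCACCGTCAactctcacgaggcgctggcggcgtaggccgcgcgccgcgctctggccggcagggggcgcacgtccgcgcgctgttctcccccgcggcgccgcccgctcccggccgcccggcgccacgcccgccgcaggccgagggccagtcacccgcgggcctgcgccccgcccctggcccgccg
Nfe2l2: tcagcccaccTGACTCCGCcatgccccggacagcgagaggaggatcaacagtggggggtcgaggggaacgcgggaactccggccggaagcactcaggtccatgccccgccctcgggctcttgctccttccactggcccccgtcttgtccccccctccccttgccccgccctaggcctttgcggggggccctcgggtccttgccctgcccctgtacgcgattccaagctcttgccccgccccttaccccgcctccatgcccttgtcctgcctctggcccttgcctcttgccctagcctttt
Txnrd1: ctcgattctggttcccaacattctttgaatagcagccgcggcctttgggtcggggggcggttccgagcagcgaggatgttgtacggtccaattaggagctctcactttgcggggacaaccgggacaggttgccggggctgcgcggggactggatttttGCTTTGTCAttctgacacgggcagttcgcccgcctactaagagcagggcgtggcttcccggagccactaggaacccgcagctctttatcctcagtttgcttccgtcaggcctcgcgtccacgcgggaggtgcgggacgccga

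In the Srxn1 window, TGAGTCA began at positions -102 and -45 from the start site and a reverse-strand antioxidant response element core at 29. With the letters that follow it, the match at -45 reads TGAGTCAGC, a form that the core as searched, TGACNNNGC, did not cover. The core began at -134 in Gclm (reverse strand), at -240 in Nfe2l2 (forward strand) and at -92 in Txnrd1 (reverse strand), and these matches did not overlap another motif searched. The antioxidant response element core occurred in 12.4% of all 32851 promoter windows of this length, TGAGTCA in 5.2% and the heat shock element core in 15.1%. These shares are per window, while the matches above were counted per gene, and the 7 genes searched had 9 windows. The windows of Nqo1, Slc7a11 and Keap1 and the other windows of Txnrd1 held none of the motifs. A match describes the letters only, and none of these windows says which factor was bound in the cells.

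Hmox1, which encodes the enzyme that opens the heme ring, was higher in the preshocked array of all 5 pairs. In KO-labelled cells its intensity was 1345, 755 and 325 in unheated arrays 6, 12 and 14, and 2473, 1393 and 882 in their preshocked partners 5, 11 and 13. In rescue-labelled cells it was 504 and 1571 in unheated arrays 32 and 44, and 1100 and 3139 in preshocked arrays 31 and 43. Within each pair the preshocked array was 1.90 to 2.75 times as bright after normalization, yet the groups overlapped, because the level differed more from pair to pair than between heated and unheated cells of a pair. The overlap shows in array 6, unheated, which was brighter than array 13, preshocked.

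The log2 change of Hmox1 (preshocked minus unheated, with its standard error) was 1.11 ± 0.65 in KO-labelled and 1.09 ± 0.80 in rescue-labelled cells. The common preshock effect, the mean of the changes in both lines, was 1.10 ± 0.52 with a 95% interval of -0.08 to 2.28. None of the 3 passed limma with Benjamini-Hochberg adjustment, with adjusted p of 0.608, 0.907 and 0.333. With the pair as a block the same changes had errors of 0.13, 0.16 and 0.10, and the adjusted p was 0.0222, 0.0548 and 0.00869, so that Hmox1 rose in KO-labelled cells and in the common effect. The KO-labelled call was lost when any single pair was left out (adjusted p 0.0622 to 0.112). The common call remained without each KO-labelled pair and was lost without either rescue-labelled pair, 31 and 32 (0.0669) or 43 and 44 (0.0567).

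**Figure D1:**
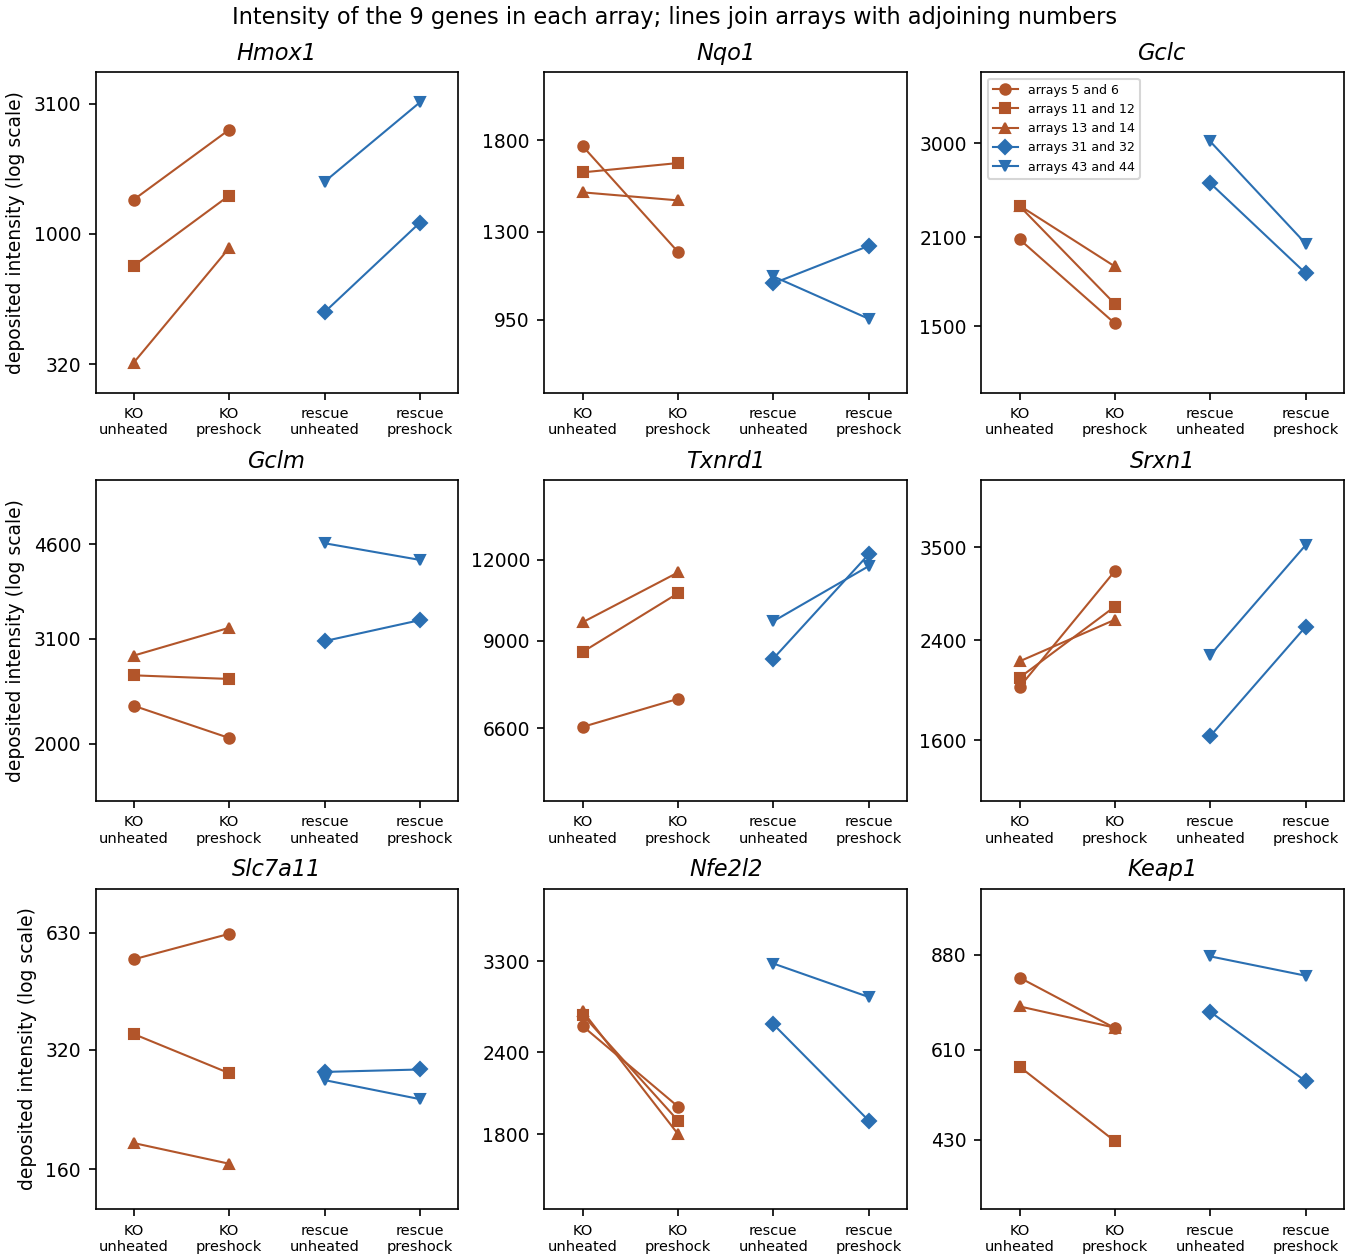
Deposited intensity (log scale, 1 panel per gene with its own axis) of the probe set used for each of the 9 genes in the 10 arrays, by group; lines join the unheated and preshocked array of a pair. Every line rises for Hmox1, Srxn1 and Txnrd1 and every line falls for Gclc, Nfe2l2 and Keap1, while Hmox1 spans 325 to 3139 across arrays.

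Among unheated arrays alone Hmox1 ranged over 325 to 1571. Its within-group SD was 0.94 on the log2 scale, above 95.9% of tested genes, whose median was 0.27. The SD of its 5 pair changes was 0.22, so that the spread lay between pairs and little of it within them. In both lines the pair with the higher array medians had the brighter Hmox1. In the rescue-labelled line these medians were close, at 52.3 and 53.3 in arrays 43 and 44 against 50.8 and 50.7 in arrays 31 and 32. KO-labelled Hmox1 ran highest in pair 5 and 6 and lowest in pair 13 and 14, and the array medians there were 100.4 and 107.0 against 55.4 and 54.9. This order remained after quantile normalization (log2 levels of 10.40, 9.52 and 8.43 in the unheated arrays 6, 12 and 14), and the part of the array medians in it was not tested. Summed macrophage and leukocyte marker intensity lay between 761 and 1249 in KO-labelled preshocked and 801 and 1724 in KO-labelled unheated arrays. In rescue-labelled cells it was 892 to 974 after preshock and 900 to 903 without, and its part in the Hmox1 level was not tested. In these bulk samples, fewer cells of a type and less RNA per cell cannot be told apart.

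The tested genes most like Hmox1 over the 10 arrays, by Pearson correlation of log2 levels given as a description, were Ahdc1 (r = 0.942), Zfand5 (0.935), Chic2 (0.926), Spidr (0.925) and Dyrk1a (0.907). The arrays share their pairs, so these values follow the differences between pairs as well as the heat. Dyrk1a, a protein kinase gene, was higher in every pair by 0.44 to 0.68 (log2), with a common effect of 0.58 and an adjusted p of 0.126 without and 0.00772 with the pair block. Among the other 8 genes described here, Srxn1 was the most like Hmox1 (r = 0.785, rank 114) and Gclc the least (r = -0.449).

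Srxn1 encodes sulfiredoxin, which reactivates overoxidized peroxiredoxins. Its brightest probe set read 1985, 2062 and 2203 in unheated KO-labelled arrays 6, 12 and 14, and 3178, 2751 and 2608 in preshocked arrays 5, 11 and 13. In rescue-labelled cells it read 1627 and 2259 in unheated arrays 32 and 44, and 2535 and 3529 in preshocked arrays 31 and 43. Every preshocked array was above every unheated array in each line. The log2 change was 0.45 ± 0.19 in KO-labelled and 0.65 ± 0.24 in rescue-labelled cells, and the common effect was 0.55 ± 0.15 (limma adjusted p of 0.382, 0.444 and 0.0952). With the pair block Srxn1 rose in the common effect (adjusted p 0.0192), but passed in neither line alone (0.0701 and 0.0786). The common call was lost without pair 11 and 12 (0.0669), 31 and 32 (0.105) or 43 and 44 (0.0953).

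Of the other 3 Srxn1 probe sets, 1451680_at and 1425351_at were also higher in 5 of 5 pairs, by 0.15 to 0.55 and by 0.12 to 0.93. The dimmest, 1419942_at, was not: it changed by -0.34 to 0.21 over the pairs, and its rescue-labelled arrays (84.9 to 174) were all below the KO-labelled ones (219 to 286). Its difference between the preshocked lines, -1.05 ± 0.38, had an adjusted p of 0.585 over all probe sets. The probe sets thus disagreed on the gene, with 3 of 4 higher after heat in every pair.

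Txnrd1, the cytosolic thioredoxin reductase, read 6631, 8654 and 9615 in unheated KO-labelled arrays 6, 12 and 14, and 7326, 10657 and 11475 in preshocked arrays 5, 11 and 13. Rescue-labelled values were 8451 and 9648 in unheated arrays 32 and 44, and 12239 and 11735 in preshocked arrays 31 and 43. The KO-labelled groups overlapped and the rescue-labelled ones did not. The common effect was 0.22 ± 0.11 (adjusted p 0.404, and 0.0535 with the pair block), and all 3 probe sets were higher in 5 of 5 pairs, by 0.09 to 1.01. The dimmer probe set 1424486_a_at ranged from 522 to 2591 and differed more between rescue-labelled pairs than with heat.

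Gclc was lower after preshock. It encodes the catalytic subunit of glutamate-cysteine ligase, the rate-limiting enzyme of glutathione synthesis. KO-labelled intensities were 2084, 2364 and 2368 in unheated arrays 6, 12 and 14, and 1515, 1631 and 1880 in preshocked arrays 5, 11 and 13. Rescue-labelled intensities were 2578 and 3020 in unheated arrays 32 and 44, and 1833 and 2051 in preshocked arrays 31 and 43. Every preshocked array was below every unheated array of its line, and of the other line too.

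The log2 change of Gclc was -0.44 ± 0.14 in KO-labelled cells (limma adjusted p 0.197, and 0.0405 with the pair block) and -0.53 ± 0.17 in rescue-labelled cells (0.352, and 0.0654 with the block). The common effect was -0.48 ± 0.11 (95% interval -0.73 to -0.23), with an adjusted p of 0.0461, and Gclc was the only gene of the 9 to pass without the block. The call stood near the threshold: leaving out any single array gave an adjusted p of 0.0540 to 0.169, and centring arrays on their medians gave 0.848. With the pair block it was 0.0137, and it rose past 0.05 without pair 11 and 12 (0.0540), 31 and 32 (0.0764) or 43 and 44 (0.0759). The KO-labelled call with the block was lost without any single pair (0.0854 to 0.178). The second Gclc probe set, 1455959_s_at, was lower in 5 of 5 pairs as well, by -0.76 to -0.47.

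Gclm, the modifier subunit of the same ligase, had no common direction after heat. It read 2344, 2662 and 2891 in unheated KO-labelled arrays 6, 12 and 14, and 2049, 2622 and 3247 in preshocked arrays 5, 11 and 13. Rescue-labelled values were 3071 and 4622 in unheated arrays 32 and 44, and 3352 and 4311 in preshocked arrays 31 and 43. Heated and unheated arrays overlapped in both lines, and the common effect was -0.03 ± 0.18 (95% interval -0.44 to 0.37, adjusted p 0.97). The dimmer probe set 1439050_at was higher in 4 of 5 pairs, with changes of -0.19 to 0.15. Whether the changes of Gclc and Gclm differ was not tested.

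Slc7a11, the cystine importer subunit that feeds glutathione synthesis, showed a pair pattern with no common direction after heat. Its intensity was 540, 350 and 186 in unheated KO-labelled arrays 6, 12 and 14, and 626, 279 and 165 in preshocked arrays 5, 11 and 13. The rescue-labelled arrays lay between 240 and 285. Within the KO-labelled line pair 5 and 6 was the brightest and pair 13 and 14 the dimmest, as for Hmox1 there, and the within-group SD of 0.62 (log2) exceeded that of 88.4% of tested genes. The common effect was 0.02 ± 0.35 on this probe set (adjusted p 0.991), and the second probe set, 1420413_at, was higher in 4 of 5 pairs by up to 0.46.

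Nqo1, a quinone reductase widely used as a readout of NRF2, had no common direction after preshock either. Its intensity was 1762, 1605 and 1495 in unheated KO-labelled arrays 6, 12 and 14, and 1210, 1659 and 1453 in preshocked arrays 5, 11 and 13. Rescue-labelled values were 1082 and 1109 in unheated arrays 32 and 44, and 1236 and 954 in preshocked arrays 31 and 43. Array 5 was the dimmest KO-labelled array, with a pair change of -0.59 against -0.18 to 0.23 in the other 4 pairs. The common effect was -0.07 ± 0.14 (95% interval -0.39 to 0.24, adjusted p 0.913).

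Nfe2l2, which encodes NRF2 itself, was lower after preshock in the probe set that carries its signal. KO-labelled intensities were 2631, 2737 and 2773 in unheated arrays 6, 12 and 14, and 1985, 1890 and 1803 in preshocked arrays 5, 11 and 13. Rescue-labelled intensities were 2648 and 3275 in unheated arrays 32 and 44, and 1890 and 2913 in preshocked arrays 31 and 43. The KO-labelled groups were well apart, while preshocked array 43 was brighter than unheated array 32.

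The log2 change of Nfe2l2 was -0.53 ± 0.17 in KO-labelled cells (limma adjusted p 0.216, and 0.0319 with the pair block) and -0.34 ± 0.21 in rescue-labelled cells (0.821, and 0.136). The common effect was -0.44 ± 0.14 (0.132, and 0.0167), so Nfe2l2 fell in the KO-labelled line and in the common effect when pairs were compared. The KO-labelled call was lost without any single pair (adjusted p 0.0622 to 0.146). The common call remained without pair 5 and 6 (0.0396) and was lost without each of the other 4 pairs (0.0557 to 0.0885). Probe set 1457117_at, near the lower end of the scale at 2.22 to 72.2, was higher in 5 of 5 pairs. Its common effect was 2.26 ± 0.81 with an unadjusted p of 0.0249 and an adjusted p of 0.463, and the mean over both probe sets had the opposite sign to the bright one (0.91).

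Keap1, the adaptor that holds NRF2 for degradation, read 806, 571 and 721 in unheated KO-labelled arrays 6, 12 and 14, and 663, 428 and 664 in preshocked arrays 5, 11 and 13. Rescue-labelled values were 706 and 875 in unheated arrays 32 and 44, and 540 and 812 in preshocked arrays 31 and 43. Each preshocked array was below its partner, in pair 13 and 14 by 0.01 on the log2 scale, and the groups overlapped. The common effect was -0.18 ± 0.18 (adjusted p 0.772, and 0.168 with the pair block), and the dimmer probe set 1450747_at was lower in 3 of 5 pairs.

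**Figure D2:**
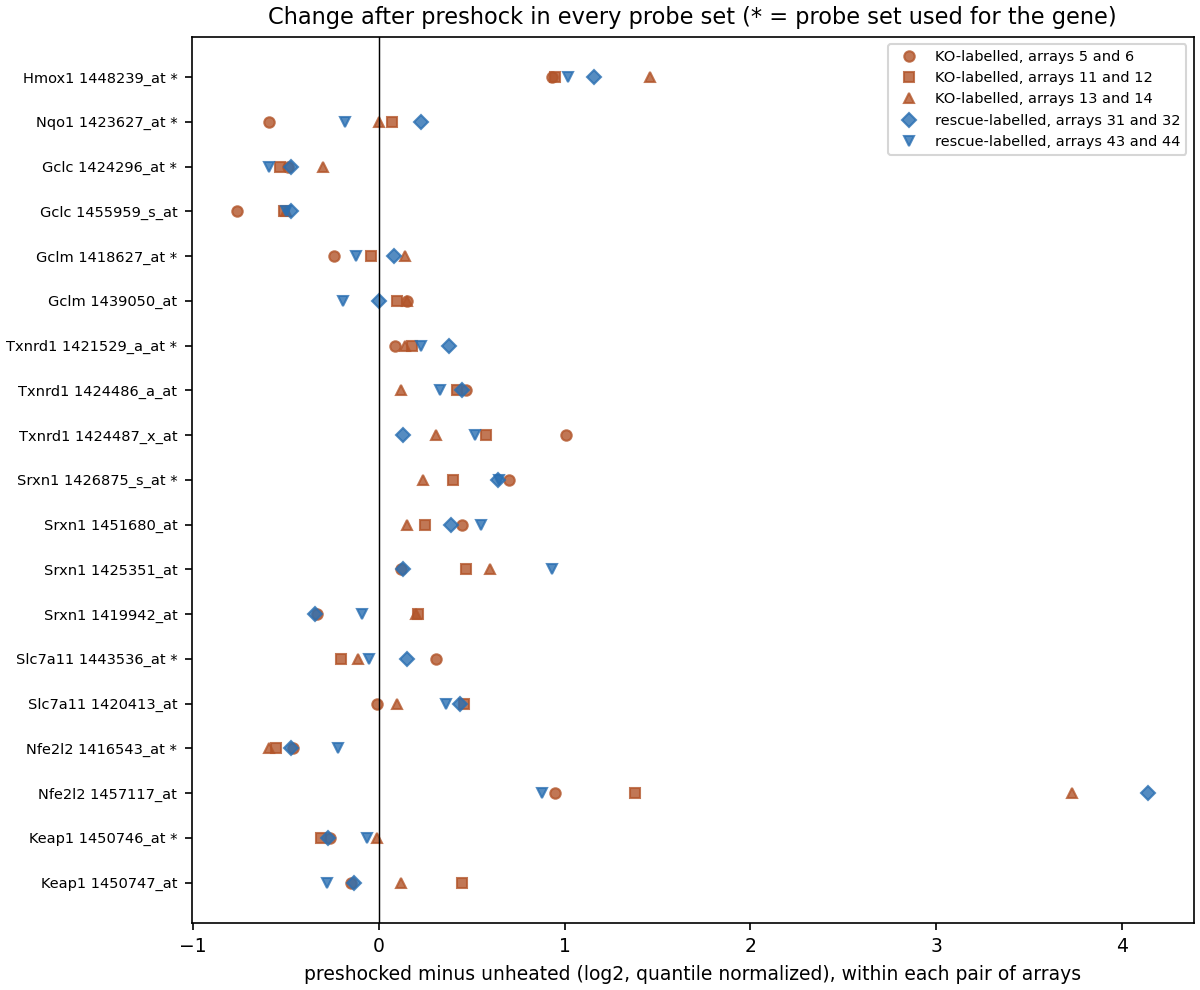
Log2 change (preshocked minus unheated, quantile normalized) of each of the 19 probe sets, 1 point per pair of arrays; an asterisk marks the probe set used for the gene. The 5 Hmox1 points lie between 0.93 and 1.46 and the Gclc points between -0.76 and -0.30, while the probe sets of Srxn1 and of Nfe2l2 disagree with each other in direction.

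Counted over the 9 genes, limma without the pair block called 0 in the KO-labelled line, where it called 1.77% of all tested genes, and 0 in the rescue-labelled line (0.357% of all). At an unadjusted p under 0.05 the numbers were 3 and 2 of 9, beside 12.8% and 8.36% of all tested genes. In the common effect it called 1, Gclc, as lower (2.57% of all were called lower), and 4.42% of all tested genes in either direction. There 3 of 9 had an unadjusted p under 0.05, beside 17.3% of all tested genes. The median common effect of the 9 genes was -0.032 and that of all tested genes -0.039 (log2), with 4 genes above 0 and 5 below. How many of all tested genes changed in the same direction in all 5 pairs was not counted.

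In the blocked fit 1 gene was higher (3.33% of all tested genes were called higher) and 2 were lower (5.82%) in the KO-labelled line, where 9.15% of all were called in either direction, and 0 were called in the rescue-labelled line (1.5%; 5 of 9 at an unadjusted p under 0.05, beside 22.3% of all). In the common effect 2 were higher (Hmox1 and Srxn1; 5.87% of all were called higher) and 2 lower (Gclc and Nfe2l2; 11.5% were called lower). The sum of 4 of 9 stands against 17.4% of all tested genes. At an unadjusted p under 0.05 the blocked fit had 4 of 9 in the KO-labelled line, beside 27.7% of all. In the common effect it had 5 of 9, beside 34.1%. In the fit over all 45037 probe sets, 0 of the 19 probe sets were called in any of the 6 comparisons, with or without the block. That fit without the block called 0.238% of all probe sets in the common effect, 0.06% in the KO-labelled and 0.0244% in the rescue-labelled line, 0.0266% and 0.04% between the unheated and the preshocked lines, and 0.00666% in the difference of responses. With the block it called 0.00666% and 0.0111% between the lines and 0% in the other 4 comparisons. Among the 19, 5 had an unadjusted p under 0.05 in the common effect, 2 in the KO-labelled and 0 in the rescue-labelled line, beside 8.71%, 6.63% and 5.68% of all probe sets.

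**Figure D3:**
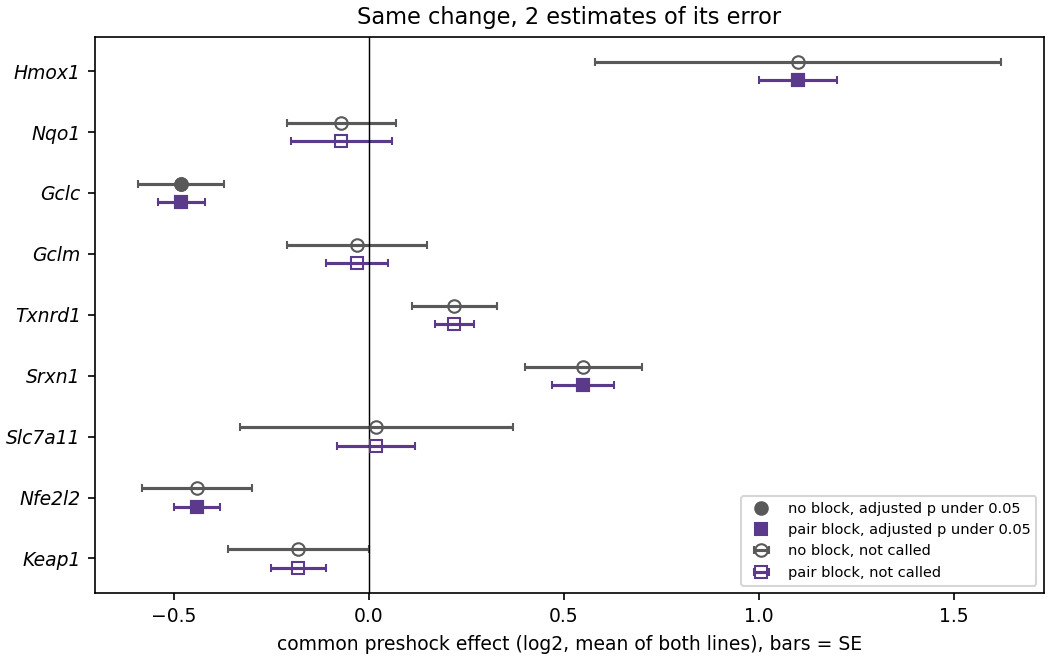
Common preshock effect (log2, mean of the changes in both lines) of the 9 genes with its standard error, without (grey circles) and with (purple squares) the pair as a block; filled symbols passed an adjusted p under 0.05. The change is the same in both fits, while the error of Hmox1 goes from 0.52 to 0.10 and Gclc is the only gene filled in both.

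Whether the lines responded differently was tested as the difference of responses (rescue-labelled minus KO-labelled change). It was -0.02 for Hmox1 (95% interval -2.38 to 2.34), -0.09 for Gclc (-0.59 to 0.41), 0.20 for Srxn1 (-0.50 to 0.90) and 0.19 for Nfe2l2 (-0.44 to 0.82). These intervals are wide, and a p that misses the threshold does not show like responses. Limma called 0 of the 9 genes and 0% of all tested genes, 103 of which had an unadjusted p under 0.05 (0 of the 9 did). The blocked fit called 0 as well, with 546 at an unadjusted p under 0.05 and 0 of the 9 among them.

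Between the lines, limma called 0 of the 9 genes in unheated cells (0.421% of all tested genes) and 0 in preshocked cells (0.339%), and at an unadjusted p under 0.05 the numbers were 1 and 0 (12.9% and 14.1% of all). Nqo1 was below all unheated KO-labelled arrays in both unheated rescue-labelled arrays, with a difference (rescue minus KO) of -0.61 ± 0.20 (unadjusted p 0.0136, adjusted p 0.266). After preshock it was -0.41 ± 0.20, and the groups overlapped. Within each treatment Gclm was brighter in each rescue-labelled array than in each KO-labelled one, unheated (0.50 ± 0.25, adjusted p 0.435) and preshocked (0.53 ± 0.25, adjusted p 0.384). Its second probe set, 1439050_at, differed by 0.10 ± 0.20 and -0.13 ± 0.20. These differences depend on the scaling. Centring arrays on their medians moved the median line difference of all tested genes from -0.024 to 0.50 in unheated cells and from -0.013 to 0.42 in preshocked cells. Nqo1 then differed by -0.02 and 0.07, its sign turning in preshocked cells, and Gclm by 1.06 and 1.02.

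Levels ordered by group mean were mostly not separable. Hmox1 was brightest in rescue-labelled preshocked cells (10.87 ± 1.02, log2, SD, n = 2), then in KO-labelled preshocked (10.56 ± 0.72, n = 3), rescue-labelled unheated (9.78 ± 1.12, n = 2) and KO-labelled unheated cells (9.45 ± 0.98, n = 3), and each neighbouring pair of groups overlapped. For Gclc the order was rescue-labelled unheated (11.44 ± 0.18), KO-labelled unheated (11.16 ± 0.07), rescue-labelled preshocked (10.91 ± 0.09) and KO-labelled preshocked cells (10.72 ± 0.16), and only the last pair of neighbours overlapped. In Srxn1 both preshocked groups (11.53 ± 0.35 and 11.48 ± 0.20) were above both unheated groups (11.04 ± 0.05 and 10.88 ± 0.35), and the lines overlapped within each treatment.

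The wider pathway was followed in 9 lists with 95 genes, 75 of them tested, which hold the 9 genes as well. In the common effect limma called 5 of the 75 as higher and 1 as lower, 8% against 4.42% of all tested genes, and with the pair block 10 and 6, 21.3% against 17.4%. The median common effect of the 75 was 0.039 (log2) beside -0.039 for all tested genes.

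The regulators of NRF2 and its partners gave 3 genes called higher and 0 lower of 12 tested (1.84% and 2.57% of all tested genes). Maff, a small MAF partner, read 385 to 507 in the 3 unheated and 954 to 1494 in the 3 preshocked KO-labelled arrays, and 401 and 431 against 1074 and 1292 in the rescue-labelled ones. The groups were far apart, and the common effect was 1.55 ± 0.16 (adjusted p 0.00182). Maff also rose in each line, by 1.54 ± 0.20 in KO-labelled (adjusted p 0.0104) and 1.56 ± 0.24 in rescue-labelled cells (0.0454, and 0.0632 with the pair block). Mafk, another small MAF, rose by 1.08 ± 0.19 (adjusted p 0.0184), from 385 to 629 in unheated arrays to 699 to 1492 in preshocked ones. Bach1, the repressor that competes with NRF2, rose by 0.86 ± 0.15 (adjusted p 0.0180), from 1081 to 1481 in unheated arrays to 1806 to 2616 in preshocked ones. Each of the 3 was higher in 5 of 5 pairs. Cul3, Btrc and Sqstm1 of the same list, which were not called with or without the block, also kept the same direction in all 5 pairs.

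The common call of Maff remained without any single array (adjusted p 0.00252 to 0.0158). That of Mafk was lost without array 31 (0.0744) or 44 (0.0756), and that of Bach1 without array 11, 31, 43 or 44 (0.0528 to 0.0778). Centring arrays on their medians gave 0.0138 for Maff, 0.0581 for Mafk and 0.174 for Bach1. In the blocked fit Maff lost its common call without pair 31 and 32 (0.0762) or 43 and 44 (0.0681), and so did Mafk (0.0596 and 0.0505), while Bach1 lost it without these (0.0809 and 0.0904) or 11 and 12 (0.0644). Of the calls in single lines, the KO-labelled call of Maff was lost without array 11 (0.0510) and the rescue-labelled call in 8 of 10 such fits (up to 0.279). Mafk passed in single lines only with the pair block (adjusted p 0.0164 in KO-labelled and 0.0483 in rescue-labelled cells, 0.0646 and 0.288 without it). So did Bach1 in KO-labelled cells (0.0486, and 0.0881 without it). These calls were lost when any KO-labelled pair was left out. Antioxidant response element cores lay in promoter windows of Maff (TGACTCTGC at -112) and Mafk (GCGGTGTCA at -13), while the other 2 windows of Maff and the window of Bach1 held no match.

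The median of these 12 genes was -0.162, below 0, with 5 genes above 0. With the pair block Atf4 (-0.49, adjusted p 0.0109), Nfe2l2, Mafg (-0.39, 0.0300) and Nfe2l1 (-0.39, 0.0381) fell, and none of these 4 passed without it. Of the 3 probe sets of Atf4, 2 had a common effect below 0. The blocked calls of Mafg and Nfe2l1 were lost without any single pair (adjusted p 0.0650 to 0.123 and 0.0669 to 0.167), and that of Atf4 without pair 11 and 12 (0.0509), 31 and 32 (0.0726) or 43 and 44 (0.0567). Atf4, Mafg and Nfe2l1 were named after their values had been seen. Mafg, another small MAF, thus had the opposite sign to Maff and Mafk, and it was lower in 5 of 5 pairs.

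The glutathione list (8 tested, 0 higher and 1 lower, beside 1.84% and 2.57% of all tested genes) gave Gclc alone. With the pair block Ggct (0.55, adjusted p 0.0171), an enzyme of the gamma-glutamyl cycle, and Chac1 (0.61, adjusted p 0.0432), which breaks down glutathione, rose there, and both were named after their values had been seen. The call of Ggct was lost without 3 of the 5 pairs and that of Chac1 without 4 of 5 (adjusted p up to 0.0946 and 0.172). Of the 3 probe sets of Ggct, 2 had a common effect above 0. Chac1 was brightest in array 5 (4073, against 1511 to 1907 in the other preshocked arrays). Gss, glutathione synthetase, was at 0.22 ± 0.11 and Gsr, glutathione reductase, at 0.03 ± 0.12, and neither passed with or without the block.

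The thioredoxin and peroxiredoxin list gave 1 gene called higher and 0 lower of 14 tested (1.84% and 2.57% of all tested genes). Txnip, which encodes an inhibitor of thioredoxin, rose by 1.78 ± 0.30 (adjusted p 0.0146). It read 262 to 573 in the unheated and 1080 to 2549 in the preshocked KO-labelled arrays, and 308 and 416 against 857 and 1108 in the rescue-labelled ones. The groups did not overlap in either line. It rose in KO-labelled cells by 2.07 ± 0.37 (adjusted p 0.0346), and in rescue-labelled cells the change was 1.49 ± 0.46 (0.323, and 0.0365 with the pair block). The common call of Txnip was lost without array 31 (0.0673) or 44 (0.0630) and, in the blocked fit, without pair 31 and 32 (0.0512), and the KO-labelled one in 8 of the 10 fits that left out 1 array (up to 0.128). Txn1, thioredoxin, was at -0.04 ± 0.13.

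Quinone reduction and detoxification genes gave 1 called higher and 0 lower of 10 tested (1.84% and 2.57% of all tested genes). Aox1, an aldehyde oxidase, rose by 0.85 ± 0.17 (adjusted p 0.0302), from 88.4 to 174 in unheated to 180 to 244 in preshocked arrays. That call was lost in 8 of the 10 fits that left out 1 array (adjusted p up to 0.124) and with arrays centred on their medians (0.197). With the pair block Aldh3a1 rose too (0.43, adjusted p 0.0113). Among heme breakdown and ferritin genes (5 tested), 0 were called without the block. With it Hmox1 rose and Hmox2, the constitutive heme oxygenase, fell by 0.25 (adjusted p 0.0470). The Hmox2 call was lost without any single pair (0.0685 to 0.184) and the Aldh3a1 call without 3 of the 5 (up to 0.0764). Aldh3a1 and Hmox2 were named after their values had been seen. Fth1, ferritin heavy chain, was at 0.05 ± 0.12.

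In 4 lists no gene was called in the common effect with or without the block. These were glutathione peroxidases and transferases (13 tested, median 0.026), NADPH supply (5, 0.013), superoxide and peroxide removal (5, -0.008) and conjugate export (3, 0.016), and 0 of these genes had an unadjusted p under 0.05 without the block. Sod1, Cat and Gpx1 lay between -0.02 and -0.01.

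Between the lines 1 of the 75 list genes was called in unheated cells and 1 in preshocked cells, beside 0.421% and 0.339% of all tested genes. Ephx1, microsomal epoxide hydrolase, was lower in unheated rescue-labelled cells by -1.21 ± 0.18 (adjusted p 0.0346, and 0.0564 with the pair as a random block), at 180 and 196 against 423 to 565. Mgst1, a microsomal glutathione transferase, was higher in preshocked rescue-labelled cells by 1.35 ± 0.21 (adjusted p 0.0454, and 0.0736 with the block), at 449 and 472 against 152 to 254. Each call was lost in 9 of the 10 fits that left out 1 array, with adjusted p up to 0.271 for Ephx1 and 0.262 for Mgst1, and the mean of probe sets gave 0.0536 and 0.762. Centring arrays on their medians gave Ephx1 an adjusted p of 0.291 and Mgst1 0.0392.

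Markers of some other cell types also differed between the lines. Epithelial sums (168 to 804 in KO-labelled, 99.6 to 192 in rescue-labelled arrays) and endothelial sums (47.1 to 306 and 83.4 to 107) overlapped. Summed muscle marker intensity was 555 to 815 in KO-labelled and 211 to 306 in rescue-labelled arrays, and summed hepatocyte marker intensity was 28.8 to 139 and 9.64 to 25.2, so that the lines did not overlap in either sum. None of the 2 hepatocyte markers and 2 of the 3 muscle markers were bright enough to be tested. Array medians were also higher in KO-labelled arrays (54.9 to 107) than in rescue-labelled ones (50.7 to 53.3), and their part in these sums was not tested. The part of these markers in the line differences of Nqo1, Gclm, Ephx1 and Mgst1 was not tested.

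**Figure D4:**
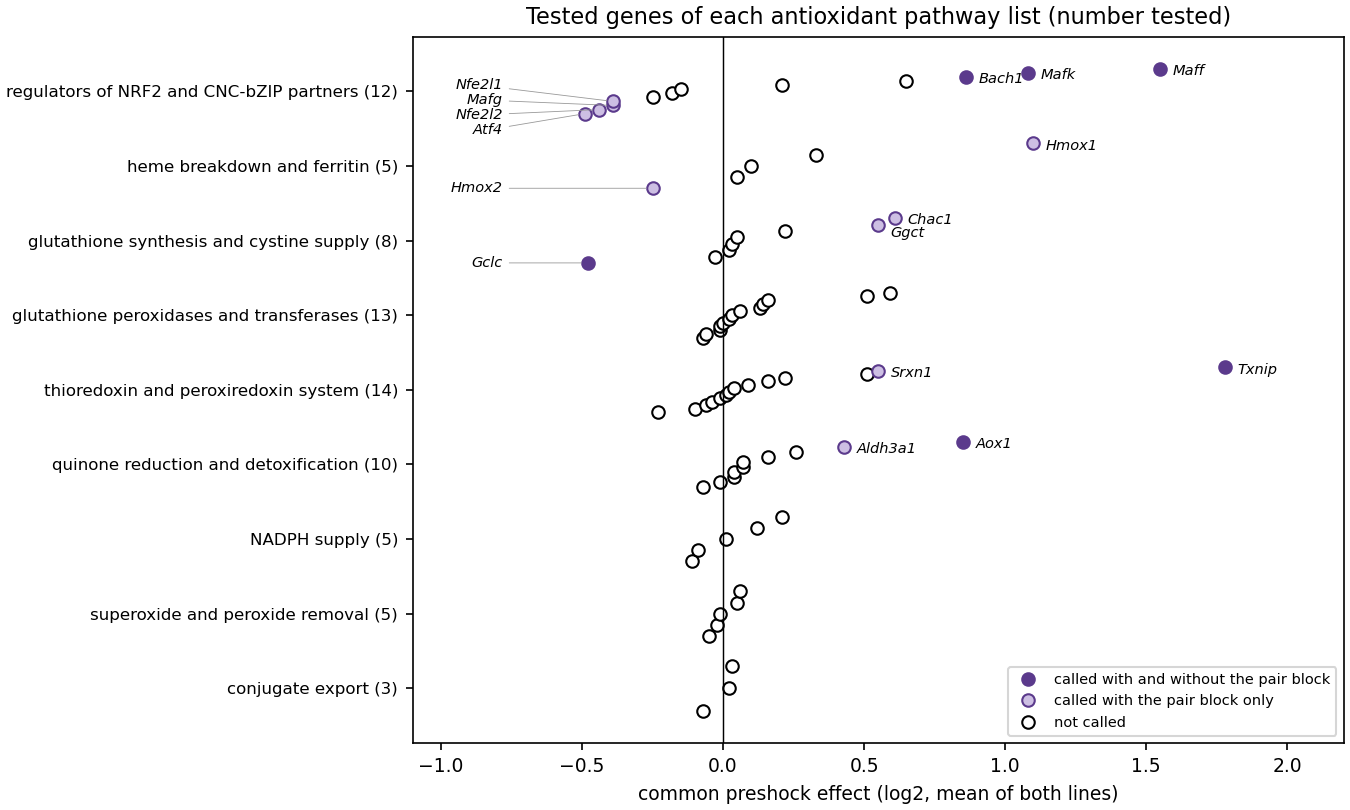
Common preshock effect (log2) of the 75 tested genes in 9 antioxidant pathway lists, 1 point per gene, with the number tested after each list name; dark points were called with and without the pair block, pale points with it only, open points in neither. Maff (1.55), Txnip (1.78), Mafk (1.08), Bach1 (0.86) and Aox1 (0.85) are the dark points above 0 and Gclc (-0.48) is the dark point below 0.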

How the data were processed

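RNA levels in 10 samples were read on 1 Affymetrix mouse array each. The authors deposited a linear intensity for each probe set on each array. The sources used here do not give the software. Its mean after trimming 2% at each end was 500.003 to 500.004 in every array. Values below 1 (4935 of them) were set to 1, log2 was taken, and arrays were quantile normalized, because array medians differed by 1.08 (log2), above a tolerance of 0.2. Printed intensities are as deposited. Detection calls were not used. Precision is limited by the number of arrays.

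Each gene took its brightest probe set with 1 symbol in the platform annotation, and the brightest 60% of genes, 10915, were tested. A limma model (version 3.58.1, R 4.3.3, statmod 1.5.0) with a mean per group gave the 2 preshock responses, their mean, their difference and the line differences. Benjamini-Hochberg adjustment ran over all tested genes, with calls made under 0.05. Errors are standard errors unless marked SD. A second fit held all 45037 probe sets without the 64 controls. The gene fit, without a block and with the pair as a fixed block, was tested on simulated data for the preshock responses, their mean and their difference. The simulated spread between pairs was a set value and was not matched to these data. It therefore does not show how well the block performs for genes with a large spread between pairs, such as Hmox1. The fit over probe sets and the line comparisons were not tested in this way.

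Pairing rests on adjoining array numbers in the labels. Deviations from group means correlated within pairs at 0.721, 0.376, 0.552, 0.370 and 0.370 over 10915 genes. The 2 rescue-labelled values are equal by construction, since each of those groups had 2 arrays. The block was fixed for changes within lines and random between lines (correlation 0.716). The blocked fit stands beside results whose call it changes.

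The 9 genes, the pathway lists and the rule for named genes were chosen with earlier results of these data known. The rule names all 9 genes, up to 4 called genes of each list with the smallest adjusted p, and the 5 genes most correlated with Hmox1. Marker lists were fibroblast, macrophage and leukocyte, epithelial, endothelial, muscle and hepatocyte genes. Summed intensities of the last 4 over the arrays were 99.6 to 804, 47.1 to 306, 211 to 815 and 9.64 to 139, and of fibroblast genes 72015 to 119598. Promoters came from RefSeq (GRCm38.p6). Alternatives were other scalings, filters, added values and probe set rules, and fits without each array or pair.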

Additional observations from a re-analysis of the deposited data

How the results depend on the processing

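Counts are given in the order KO-labelled, rescue-labelled, common, difference, unheated and preshocked line comparison, and the main counts over all genes were 193, 39, 482, 0, 46 and 37. Gclc was lower in the common effect under every alternative run (-0.55 to -0.42) and Hmox1 higher (0.70 to 1.50), while Nfe2l2 had the opposite sign with the mean of probe sets (0.91). Centring arrays on their medians gave 28, 7, 127, 0, 32 and 22 genes, and 0 of the 9 in the common effect. Higher calls then made up 89.3%, 100%, 62.2%, 59.4% and 68.2% of those counts (leaving out the difference, with no calls) against 53.4%, 76.9%, 41.7%, 26.1% and 29.7%, and 46.6%, 75.6%, 30.8%, 15.9% and 21.6% with the deposited scaling. No filter on dim genes gave 28, 10, 167, 1, 10 and 6, and the mean of probe sets 101, 28, 255, 0, 20 and 9, each with 0 of the 9 in the common effect; in the former more genes were tested. The preshocked line comparison gave 23 with the top 40% of genes and 24 without _x_at and _s_at probe sets. Without both arrays of pair 5 and 6 the counts were 112, 78, 540, 0, 85 and 58, and 0 of the 9 in the common effect. The causes of these shifts were not tested.

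Leaving out 1 array at a time gave 42 to 139, 10 to 56, 184 to 484, 0 to 1, 3 to 43 and 0 to 37 genes, and 0 to 0 of the 9 in the common effect. The replicate block gave 999, 164, 1901, 0, 22 and 16 genes, with 3 of the 9 in the KO-labelled line and 4 in the common effect.

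Further blocked fits were chosen after seeing the data. Without pair 5 and 6 the KO-labelled count was 36 and the common count 1376, with 4 of the 9 in the latter. Without pair 11 and 12 the KO-labelled and rescue-labelled counts were 1 and 1. Without pair 13 and 14 the counts were 5, 3 and 923 (common), with 3 of the 9 in the last. Without pair 31 and 32 or 43 and 44, fits with 1 rescue-labelled pair, the rescue-labelled count was 0 and 0 and the common count 5 and 126, with 0 and 0 of the 9. With median centring the block gave 532, 315 and 1653, with 1 of the 9, 1 and 4. With the deposited scaling it gave 1059, 573 and 2359, with 3, 2 and 5; Txnrd1 joined the common calls in both (adjusted p 0.0378 and 0.0305) and Nfe2l2 left under median centring.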
